A study of Mus musculus with 6 samples.

Results

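The Myc, Max and Mxd network was examined in cultured mouse satellite cells (SCs) with and without a deletion in Nfya, the gene of the sequence-specific subunit of the CCAAT-binding factor NF-Y. The members were chosen by name and are the 10 genes Myc, Mycn, Mycl, Max, Mxd1, Mxd3, Mxd4, Mxi1, Mnt and Mlx, out of 35976 genes in the files. All 10 were among the 17348 genes that had enough counts to be tested. RNA-seq libraries were made from SCs of NF-YAcKO mice (3 libraries) and NF-YAfl/fl mice (3 libraries), aged 5 to 7 weeks by the labels, and the study's methods describe culture in growth medium. NF-YAcKO mice carry floxed NF-YA alleles and a tamoxifen-dependent Cre recombinase driven by Pax7, so the deletion is limited to cells that express Pax7 when tamoxifen is given. NF-YAfl/fl mice carry the floxed alleles without Cre and were also injected with tamoxifen (20 mg/ml), so both groups share the floxed alleles and the drug.

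Myc, Mycn and Mycl are transcription factors that bind DNA as pairs with Max, at E-boxes, and raise transcription of genes of growth, ribosome biogenesis and cell cycle entry. Mxd1, Mxd3, Mxd4, Mxi1 and Mnt take the place of Myc beside Max, recruit Sin3 corepressors and lower transcription at the same sites. Mlx is a Max-like protein that pairs with Mondo proteins at glucose-responsive genes, and also with some of the Mxd proteins and Mnt. In myoblasts, Myc is known for its fall on exit from the cell cycle, while Mxd proteins are known for their rise in differentiating cells.

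The libraries held 26936230 to 41118984 expected counts, the read counts that the RSEM program assigns to each gene. Levels of a gene in different libraries are given as CPM, counts scaled to a common library size after TMM normalization, and levels of different genes are compared in TPM, which is scaled to transcript length. The transcript entry that the authors added for the deleted Nfya allele took 27.25%, 31.96% and 40.54% of the Nfya TPM in the NF-YAcKO libraries and 0% in each NF-YAfl/fl library. The rest of the Nfya TPM in NF-YAcKO went to the other Nfya transcripts. Nfya as a whole overlapped between genotypes, at 27.0, 28.5 and 27.0 CPM in NF-YAcKO and 23.4, 25.7 and 36.9 CPM in NF-YAfl/fl (log2 fold change -0.06). The labelled cell type was checked with marker genes. Pax7, the defining factor of SCs, was present in all libraries, at 145 to 201 CPM in NF-YAcKO and 73.5 to 105 CPM in NF-YAfl/fl. The SC markers did not move together. Of 7 examined, Pax7 and Vcam1 rose in NF-YAcKO, and 2 did not pass the test described below. Des, Cdh15 and Itga7 fell, with log2 fold changes of -2.09, -1.78 and -1.25. The summed CPM of 8 differentiated muscle markers was 48.7 to 123 in NF-YAcKO and 8060 to 10697 in NF-YAfl/fl, so the control cultures also held transcripts of differentiating cells. All 8 fell. The summed CPM of 7 proliferation markers was 1907 to 2029 in NF-YAcKO and 705 to 1258 in NF-YAfl/fl, and 6 of the 7 rose. All 13 macrophage markers were higher in NF-YAcKO, with a sum of 148 to 295 CPM against 6.17 to 13.2 CPM. Xist was at 836 to 852 CPM in NF-YAcKO and under 0.5 CPM in NF-YAfl/fl, while the 4 Y-linked genes examined were near 0 in NF-YAcKO and expressed in NF-YAfl/fl. The methods describe male mice, while Xist without Y-linked expression, as in NF-YAcKO, is the pattern of female cells. Expression of these sex-linked genes split the libraries exactly as genotype did, so the parts of sex and genotype cannot be told apart. All 10 members lie on autosomes, which does not separate sex from genotype. In bulk RNA, fewer cells of a type and less RNA per cell cannot be told apart.

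Genotypes were compared across all tested genes with edgeR's quasi-likelihood test and Benjamini-Hochberg adjustment (FDR). A gene passed the test with an FDR under 0.05, and was called when the FDR was under 0.01 and the log2 fold change was above 1 or below -1. Of the 10 members, 6 passed the test, beside 38.6% of all genes tested. Mycn, Max and Mxi1 rose in NF-YAcKO, beside 19.7% of all genes. Mycl, Mxd1 and Mxd4 fell, beside 18.9% of all genes. Myc, Mxd3, Mnt and Mlx did not pass. By edgeR, 0 of the 10 members were called, beside 12.3% of all genes (4.65% higher and 7.67% lower). An unadjusted p under 0.05 was found for 7 members, beside 4271 higher and 4178 lower of the 17348 tested genes. DESeq2 called 1 member, beside 986 of these genes higher and 1804 lower. That member was Mycl, which changed by more than the fold threshold with an FDR just over 0.01 by edgeR. It was called in 8 of 15 alternative fits. The CPM of the genotypes did not overlap for 7 members, 4 higher and 3 lower, beside 55.3% of all genes (29.1% and 26.2%).

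**Figure D1:**
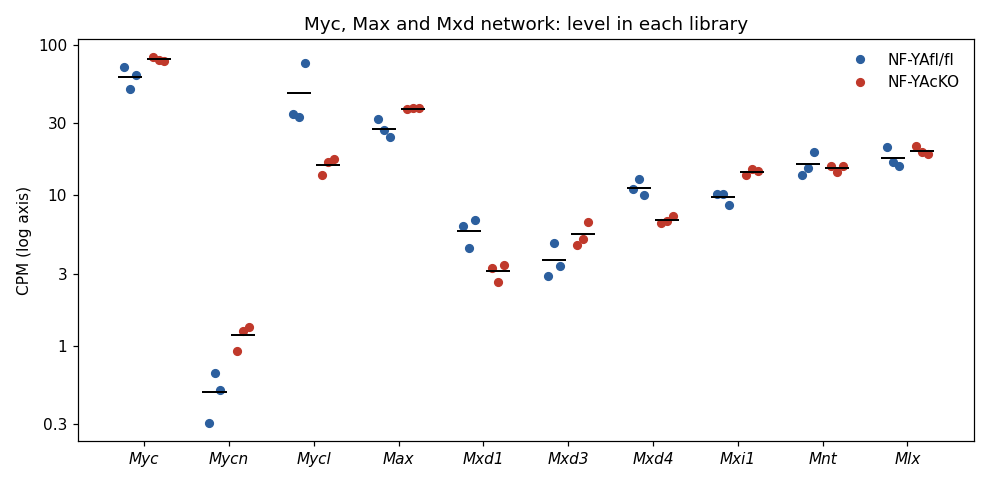
Level of each member in each library, in CPM on a log axis, with NF-YAfl/fl in blue, NF-YAcKO in red and the mean of 3 libraries as a black line. Myc is the highest member in both genotypes, and Mycl shows the widest gap, with 13.5 to 17.4 CPM in NF-YAcKO and 32.8 to 75.3 CPM in NF-YAfl/fl.

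The order of the members by TPM was led by Myc in both genotypes. Myc stood at 41.98, 34.14 and 38.28 TPM in NF-YAcKO and at 35.33, 31.22 and 25.98 TPM in NF-YAfl/fl, above every other member in each library. Max followed, with 22.1 ± 1.79 TPM (SD, n = 3) in NF-YAcKO and 17.7 ± 4.45 TPM in NF-YAfl/fl. In NF-YAcKO the next members were Mlx (12.6 ± 1.67 TPM), Mxd4 (7.20 ± 0.70), Mxi1 (6.58 ± 0.37), Mycl (5.20 ± 0.63), Mxd3 (5.13 ± 1.04), Mnt (3.58 ± 0.47), Mxd1 (0.74 ± 0.15) and Mycn (0.51 ± 0.09). There the ranges of Mxd4 and Mxi1, of Mycl and Mxd3, and of Mxd1 and Mycn overlapped, so these neighbours in the order did not differ beyond their spread. In NF-YAfl/fl Mycl came directly after Max, at 15.8 ± 5.17 TPM, and was followed by Mxd4 (12.9 ± 4.13), Mlx (12.0 ± 2.84), Mxi1 (4.71 ± 1.2), Mnt (3.96 ± 0.60), Mxd3 (3.78 ± 1.70), Mxd1 (1.43 ± 0.10) and Mycn (0.24 ± 0.12). The ranges from Max to Mlx overlapped each with the next, as did those from Mxi1 to Mxd3.

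Within the Myc family, the 3 genes showed 3 different patterns. Myc, on chromosome 15 (61985341 to 61990361 in GRCm38), encodes the member best known for driving growth and proliferation. Its CPM was 82.4, 78.8 and 77.8 in NF-YAcKO and 70.4, 50.9 and 62.3 in NF-YAfl/fl. Every NF-YAcKO library was above every NF-YAfl/fl library, by a mean of 79.7 ± 2.42 against 61.2 ± 9.76 CPM. The log2 fold change was 0.38 ± 0.13 (SE; 95% confidence interval 0.08 to 0.69) with an FDR of 0.0538, and Myc did not pass the test. It was close to the threshold on both sides: the FDR was 0.0244 with library totals in place of TMM normalization and 0.0338 without NF-YAfl/fl replicate 1, while in TPM the genotypes overlapped (limma on log2(TPM + 1), FDR 0.189).

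Mycl, on chromosome 4 (122995588 to 123002490), encodes the Myc protein of narrower tissue range. It was at 13.5, 16.6 and 17.4 CPM in NF-YAcKO and at 34.4, 32.8 and 75.3 CPM in NF-YAfl/fl. NF-YAfl/fl replicate 3 was far above the other control libraries, and all control libraries were above all NF-YAcKO libraries. Mycl fell by 1.58 ± 0.34 on the log2 scale (SE; interval -2.38 to -0.79; FDR 0.0107). Without NF-YAfl/fl replicate 3 the change was smaller, with a log2 fold change of -1.09, but its FDR was 0.00087 and Mycl was called. It was the member that passed the test in all 15 alternatives. Among the 8 differentiated muscle markers, Myog, the factor of early differentiation, was at 965, 584 and 1450 CPM in NF-YAfl/fl replicates 1, 2 and 3, and Mymk (listed as Tmem8c), needed for myoblast fusion, was at 253, 154 and 389 CPM. Both were highest in the replicate with the highest Mycl, while the other 6 markers were highest in replicate 1. The part of differentiating cells in the Mycl difference was not tested.

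Mycn, on chromosome 12 (12936093 to 12941836), is the Myc gene of embryonic and neural progenitors. It was the lowest member in TPM in both genotypes, with 29, 52 and 57 counts in NF-YAcKO and 8, 22 and 15 counts in NF-YAfl/fl. In CPM these were 0.92, 1.25 and 1.34 against 0.31, 0.65 and 0.51, without overlap. Mycn rose by 1.24 ± 0.35 on the log2 scale (SE; interval 0.43 to 2.06; FDR 0.0284). The result rests on few counts: leaving out any NF-YAcKO library or NF-YAfl/fl replicate 1 gave an FDR between 0.0533 and 0.105.

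Max, on chromosome 12 (76937269 to 76962323), encodes the partner that Myc, Mxd and Mnt proteins share. Its level was nearly the same in the NF-YAcKO libraries, at 37.1, 37.7 and 37.6 CPM, and was 31.8, 27.0 and 24.2 CPM in NF-YAfl/fl. Max rose by 0.44 ± 0.12 on the log2 scale (SE; interval 0.15 to 0.72; FDR 0.0278). In TPM, Max was at 23.26, 20.06 and 23.05 in NF-YAcKO and at 19.88, 20.57 and 12.54 in NF-YAfl/fl. These ranges overlapped, and the FDR by limma on log2(TPM + 1) was 0.262. Leaving out any NF-YAcKO library (FDR 0.111 to 0.129) or NF-YAfl/fl replicate 2 (0.0531) also moved Max above the threshold.

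Mlx, on chromosome 11 (101086707 to 101092207), lies beside Max in this network through the partners that both can bind. It was at 21.1, 19.4 and 18.8 CPM in NF-YAcKO and at 20.9, 16.6 and 15.6 CPM in NF-YAfl/fl, and the genotypes overlapped. The log2 fold change was 0.16 ± 0.14 (SE; interval -0.18 to 0.50; FDR 0.415). In the GENCODE annotation, exons of Mlx overlap those of Psmc3ip on the other strand, as do those of Mxd3 with Prelid1 and those of Mxi1 with Gm10197. The strand setting of the counting is not given in the sources used here, so whether reads were shared between these genes is not known.

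Among the repressors, Mxd1 and Mxd4 were lower and Mxi1 was higher in NF-YAcKO. Mxd4, on chromosome 5 (34176580 to 34187710), was at 6.50, 6.71 and 7.22 CPM in NF-YAcKO and at 11.0, 12.7 and 9.94 CPM in NF-YAfl/fl. It fell by 0.72 ± 0.15 on the log2 scale (SE; interval -1.08 to -0.36; FDR 0.0106), the smallest FDR among the members. Mxd1, on chromosome 6 (86647044 to 86669234), is the Mxd gene best known for its induction when cells leave the cell cycle. It was at 3.28, 2.65 and 3.43 CPM in NF-YAcKO and at 6.19, 4.43 and 6.82 CPM in NF-YAfl/fl. Mxd1 fell by 0.90 ± 0.23 on the log2 scale (SE; interval -1.43 to -0.36; FDR 0.0205). For both genes all 3 NF-YAcKO libraries were below all 3 NF-YAfl/fl libraries, in CPM and in TPM. By limma on log2(TPM + 1), Mxd4 did not pass (FDR 0.063), while Mxd1 did (FDR 0.0269). On log2(TPM + 0.1) the FDR was 0.055 for Mxd4 and 0.043 for Mxd1. Leaving out NF-YAcKO replicate 1 moved the FDR to 0.0501 for Mxd4 and 0.0589 for Mxd1, and Mxd1 also missed the threshold without NF-YAcKO replicate 2 (0.0772) or NF-YAfl/fl replicate 1 (0.0599).

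Mxi1, on chromosome 19 (53310128 to 53373293), went the other way. It was at 13.6, 14.8 and 14.4 CPM in NF-YAcKO and at 10.2, 10.1 and 8.62 CPM in NF-YAfl/fl. Mxi1 rose by 0.56 ± 0.13 on the log2 scale (SE; interval 0.25 to 0.87; FDR 0.0150), and the genotypes did not overlap in CPM or in TPM. Leaving out any of the 3 NF-YAcKO libraries moved its FDR above the threshold (0.0639 to 0.0948), and limma on log2(TPM + 1) gave 0.164.

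Mxd3, the Mxd gene that is known from cells in S phase, is on chromosome 13 (55325170 to 55329900). It was at 4.69, 5.14 and 6.60 CPM in NF-YAcKO and at 2.91, 4.82 and 3.36 CPM in NF-YAfl/fl. NF-YAfl/fl replicate 2 lay within the NF-YAcKO range, and Mxd3 did not pass (log2 fold change 0.57 ± 0.25, SE; FDR 0.118), although without that library the FDR was 0.0347. Mnt, on chromosome 11 (74830806 to 74845725), is the Max-bound repressor present in cycling and resting cells alike. It was at 15.7, 14.3 and 15.7 CPM in NF-YAcKO and at 13.6, 15.2 and 19.3 CPM in NF-YAfl/fl. The log2 fold change was -0.08 ± 0.16 (SE; interval -0.45 to 0.29; FDR 0.723), and its sign turned without NF-YAfl/fl replicate 3.

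NF-Y binds the CCAAT box and Myc with Max binds the E-box, so both motifs were looked for in the promoters. Promoter sequences of RefSeq (GRCm38.p6), 250 bases before to 50 bases after the start site, were present for 9 of the 10 members, with 3 entries for Mxi1. Myc had no entry, so its promoter was not searched. Both strands were searched for CCAAT, and CACGTG was taken as the E-box, which reads the same on both strands. A CCAAT box was found in 3 members, Mxd1, Mxd4 and Mlx, and each of them held more than 1. Of all 32851 promoter entries, 37.4% held at least 1 CCAAT box (41.1% of genes with an entry), 11.7% held at least 2 and 1.06% held at least 4. Mxd1 had 4 boxes, at -240, -192, -99 and -58 (first base, counted from the start site), and Mxd4 had 2, at -102 and -50. These are the 2 members that fell among the repressors, so their windows are shown, with the CCAAT box or its complement in capitals. They are written 5′ to 3′ on the strand of the gene, which is the minus strand of chromosome 6 for Mxd1 (chr6:86669201-86669409 spans the 4 windows) and the minus strand of chromosome 5 for Mxd4 (chr5:34187744-34187824 spans both).
Mxd1 at -240: cggcgtagagCCAATgggaggcaggct
Mxd1 at -192: cgagtcctgcagCCAATggggcgtggggg
Mxd1 at -99: gcgggcacttccCCAATcgcggagggccg
Mxd1 at -58: gccgcgggcggcCCAATgaggcacgccgc
Mxd4 at -102: cggccagtccctATTGGgcaaggctagac
Mxd4 at -50: gcgcccacacctATTGGctgcgtcgactg

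All 4 boxes of Mxd1 read in the direction of the gene, and both boxes of Mxd4 read in the opposite direction. The start site of the Mxd1 entry lies inside the gene span given above, and so does the box at -58. Mycl, which fell most, held no CCAAT box in this window, nor did Mycn, Max, Mxi1, Mxd3 or Mnt. The windows of Mycl, Mlx and Mxi1 lie inside the gene spans given above. Sequence upstream of these 3 spans was therefore not searched. Mlx held 2 boxes, at -146 and -55, and did not pass the test. Over all tested genes, a CCAAT box was in a promoter of 43.1% of the genes that passed higher, 42.1% of those that passed lower and 42.1% of those that did not pass.

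The E-box CACGTG was in promoters of 4 of the 9 members, Max, Mlx, Mxd4 and Mnt, and of 8.09% of all genes with an entry (10.4% to 12.7% of tested genes, by whether they passed and in which direction). It is shown in capitals for each of them, together with the nearby CCAAT complement in Mlx (strand of the gene, minus for Max and Mxd4 and plus for Mlx and Mnt). The window of Max is chr12:76962246-76962263, that of Mlx is chr11:101087231-101087259, that of Mxd4 is chr5:34187912-34187941 and that of Mnt is chr11:74830789-74830818.
Max at -3: ggtgagcccggtCACGTG
Mlx at -55 and -40: gcggATTGGtgggttggatCACGTGactg
Mxd4 at -219: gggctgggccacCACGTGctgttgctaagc
Mnt at -123: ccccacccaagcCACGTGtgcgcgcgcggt

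Of these 4 members with an E-box, Max rose, Mxd4 fell, and Mlx and Mnt did not pass. The matches are descriptions of the sequence, and no binding was measured here.

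**Figure D2:**
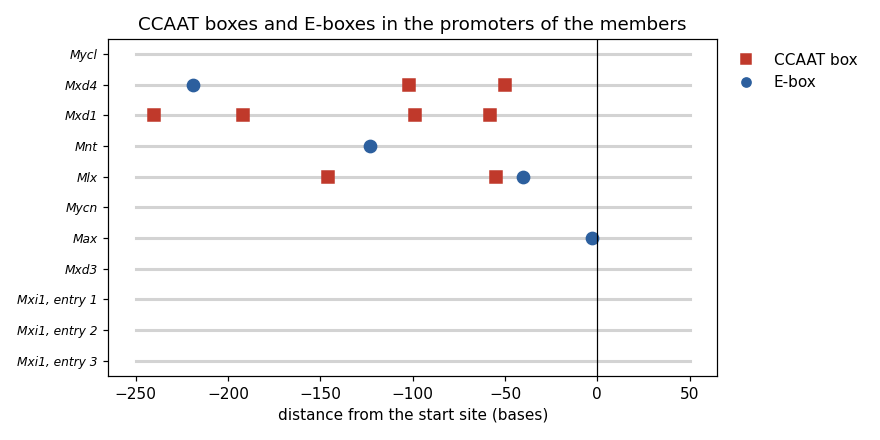
Positions of CCAAT boxes (red squares) and E-boxes (blue circles) in the promoter entries of 9 members, in bases from the start site, with 1 line for each entry. Myc had no entry. The 4 boxes of Mxd1 and the 2 of Mxd4 lie upstream of the start site of the entry, while Mycl, Mycn, Mxd3 and Mxi1 show neither motif. The entries of Mycl, Mlx and Mxi1 lie inside the annotated gene spans.

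The sum of the Myc family and the sum of the repressors were then compared in TPM in each library, as a description with no test. Myc, Mycn and Mycl together reached 47.14, 39.59 and 44.81 TPM in NF-YAcKO and 47.38, 45.42 and 47.85 TPM in NF-YAfl/fl. The sum of the family overlapped between genotypes while its makeup did not. Mycl made up 10.03%, 12.5% and 13.2% of it in NF-YAcKO and 25.1%, 30.4% and 45.3% in NF-YAfl/fl. Myc made up 85.4% to 89.1% in NF-YAcKO and 54.3% to 74.6% in NF-YAfl/fl.

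The 5 repressors together reached 23.66, 20.60 and 25.45 TPM in NF-YAcKO and 25.03, 34.60 and 20.62 TPM in NF-YAfl/fl, which overlapped as well. Mxd4 was the largest of them in every NF-YAfl/fl library, with 44.2% to 49.97% of the sum. In NF-YAcKO its share was 30.7% to 31.3%, nearly equal to that of Mxi1, which held 26.4% to 29.95% there and 16.4% to 20.3% in NF-YAfl/fl. The log2 ratio of the Myc family to the repressors was 0.99, 0.94 and 0.82 in NF-YAcKO and 0.92, 0.39 and 1.21 in NF-YAfl/fl. The means differed by 0.08, less than the spread of the control libraries (SD 0.42, n = 3). The members that pair with Max, Myc family and repressors together, reached 3.04, 3.0 and 3.05 times the TPM of Max in NF-YAcKO and 3.64, 3.89 and 5.46 times in NF-YAfl/fl, without overlap.

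**Figure D3:**
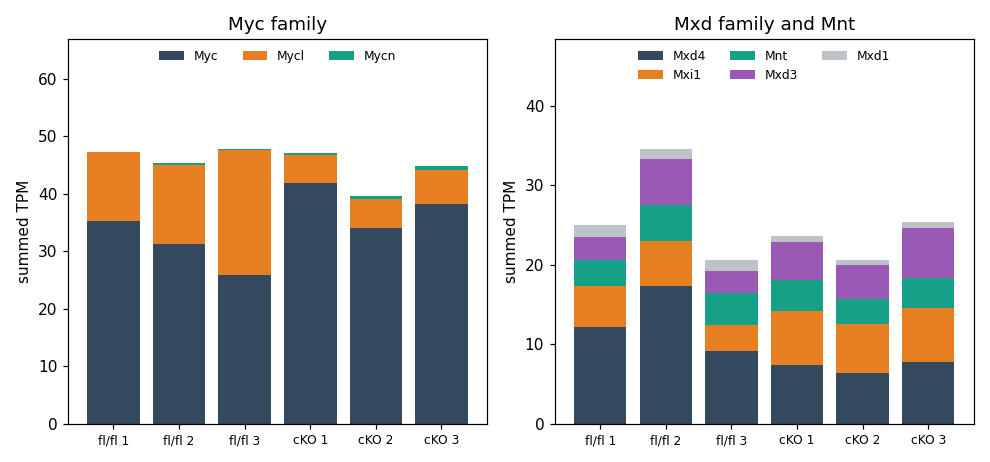
Summed TPM of the Myc family (left) and of the Mxd family with Mnt (right) in each library, stacked by gene. The summed height of the left bars lies between 39.59 and 47.85 TPM in all 6 libraries, while the Mycl part is smaller in the 3 NF-YAcKO libraries.

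The files list 37 transcripts of the members. RSEM divides reads between them, so their levels are estimates, and the smallest two-sided p of the exact permutation test with 3 against 3 libraries is 0.1. The share of a transcript in the TPM of its gene did not overlap between genotypes for 1 of the 37, beside 12.6% of the 70924 transcripts of all tested genes. It was the 3306-nt transcript of Mycl. It held 53.90%, 71.62% and 57.68% in NF-YAcKO and 73.42%, 73.00% and 72.66% in NF-YAfl/fl (exact permutation test, p = 0.1). In CPM, both of the main Mycl transcripts were lower in every NF-YAcKO library: the 3306-nt form was at 7.05, 11.5 and 9.78 against 24.5, 23.2 and 53.0, and the 3669-nt form was at 4.03, 5.09 and 4.18 against 9.91, 9.57 and 22.3 (exact permutation test, p = 0.1 for each). A predicted Mycl transcript of 3294 nt was at 2.41 and 3.41 CPM in NF-YAcKO replicates 1 and 3 and at 0 in the other 4 libraries. Its share was 18.50% and 20.18% in those replicates, where the share of the 3306-nt form was lowest. How well reads were separated between these forms of similar length was not tested.

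Max is known for a longer and a shorter protein, and its main transcripts in the files differ in length by 27 nt. The 1978-nt transcript held 63.20%, 60.89% and 58.17% of the Max TPM in NF-YAcKO and 61.62%, 52.44% and 48.48% in NF-YAfl/fl, and the 2005-nt transcript held 27.67% to 32.10% and 29.35% to 40.77%. Both shares overlapped between genotypes. The 2195-nt transcript carried most of Mxi1, with 9.53, 9.97 and 10.1 CPM in NF-YAcKO against 7.19, 5.23 and 4.78 CPM in NF-YAfl/fl. For Myc, the 2 transcripts of 2399 nt received the same counts as each other in every library, as did the 2 of 2396 nt, so neither pair was resolved. The 2399-nt pair held 69.70% to 74.20% in NF-YAcKO and 68.56% to 70.58% in NF-YAfl/fl. Mxd4 and Mycn had a single expressed transcript.

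Proteins that bind the members were listed next. Of 13 tested partners, 5 rose and 3 fell, beside 19.7% and 18.9% of all genes. Their median log2 fold change was 0.08 against -0.02 over all genes. Ruvbl1 and Ruvbl2, the paired ATPases of chromatin complexes that Myc recruits, rose together. Ruvbl2 was at 142, 148 and 131 CPM in NF-YAcKO and at 67.1, 61.3 and 82.2 CPM in NF-YAfl/fl (log2 fold change 0.999 ± 0.13, SE; FDR 0.0018), and the log2 fold change of Ruvbl1 was 0.81 ± 0.09. Kat2a, a histone acetyltransferase brought in by Myc, rose by 0.57 ± 0.09 on the log2 scale. Bin1, a protein that binds Myc and inhibits it and is also known for its part in muscle membranes, fell by 1.56 ± 0.16, from 383 to 575 CPM in NF-YAfl/fl to 157 to 168 CPM in NF-YAcKO (FDR 0.00078). Trrap, the scaffold of acetyltransferase complexes, fell by 0.38 ± 0.12 (FDR 0.0419), and Mga, a Max partner that represses transcription, fell by 0.31 ± 0.08 (FDR 0.0246). The corepressors Sin3a and Sin3b did not pass (log2 fold changes 0.32 ± 0.13 and -0.32 ± 0.18).

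Enzymes that act on the Myc protein moved in both directions: of 9 described, 3 rose and 4 fell, beside 19.7% and 18.9% of all genes. Usp28, a deubiquitinase that stabilizes Myc, had the largest change, at 20.4, 22.7 and 23.0 CPM in NF-YAcKO and at 87.4, 84.4 and 94.7 CPM in NF-YAfl/fl. It fell by 2.01 ± 0.10 on the log2 scale (FDR 6.2e-05). Fbxw7, the receptor of the ubiquitin ligase that degrades Myc, fell by 0.68 ± 0.11 (FDR 0.0044). Gsk3b, the kinase that marks Myc for Fbxw7, fell by 0.73 ± 0.21 (FDR 0.0301). Aurka, a mitotic kinase known to protect Mycn from degradation, rose by 1.47 ± 0.13, from 26.8 to 36.4 CPM in NF-YAfl/fl to 81.5 to 88.3 CPM in NF-YAcKO (FDR 0.00057). Skp2, a ubiquitin ligase subunit of S phase, rose by 1.09 ± 0.15, and Usp7, a deubiquitinase, rose by 0.48 ± 0.09. These values are of mRNA, and protein was not measured in these files.

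**Figure D4:**
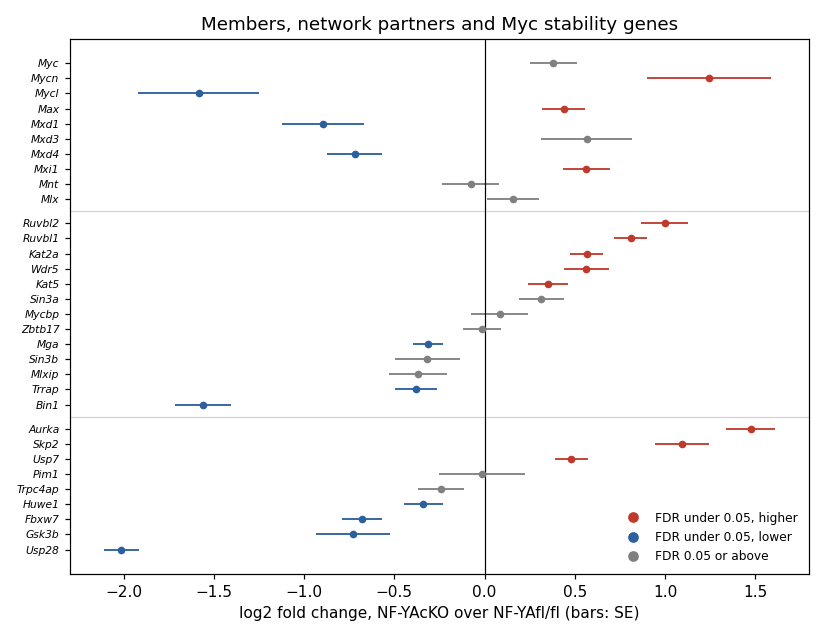
Log2 fold change of NF-YAcKO over NF-YAfl/fl with its SE for the 10 members, 13 partners and 9 genes of Myc stability, from top to bottom. Red and blue points passed the test with a higher or lower level in NF-YAcKO and grey points did not. Mycl at -1.58, Bin1 at -1.56 and Usp28 at -2.01 stand farthest to the left.

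Genes downstream of the network were counted from lists of known targets. Of 57 tested genes that are commonly used as a signature of Myc activity, most of them for ribosome biogenesis and growth, 48 rose and 0 fell by edgeR, beside 19.7% and 18.9% of all genes. At an unadjusted p under 0.05 the counts were 51 and 0, and by DESeq2 they were 49 and 0. The median log2 fold change of the list was 0.78, and 15 genes were called higher. Npm1, the nucleolar histone chaperone, was at 1502, 1693 and 1478 CPM in NF-YAcKO and at 652, 667 and 518 CPM in NF-YAfl/fl (log2 fold change 1.35 ± 0.14, SE; FDR 0.00084). Dctpp1, a nucleotide pyrophosphatase, was at 31.3, 39.2 and 32.3 CPM against 13.1, 13.5 and 13.4 CPM (1.36 ± 0.12). Mcm5, a subunit of the replicative helicase, had the largest change, at 149, 155 and 157 CPM against 44.0, 68.3 and 36.6 CPM (1.63 ± 0.22). Among the 9 genes that did not pass were Rrp12, Ipo4, Pprc1 and Dusp2, with log2 fold changes between -0.16 and -0.09. The proliferation markers Ccnb1, Cdk1 and Pcna also rose, and their log2 fold changes were 1.46 ± 0.19, 1.28 ± 0.19 and 1.43 ± 0.12. The part of the number of cycling cells in the values of the targets was not tested.

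Of 17 single genes long known as targets of Myc and Max, 9 rose and 1 fell, beside 19.7% and 18.9% of all genes. Their median log2 fold change was 0.73. Odc1, the first enzyme of polyamine synthesis, was at 1148, 1137 and 974 CPM in NF-YAcKO and at 269, 267 and 336 CPM in NF-YAfl/fl (1.90 ± 0.14, SE; FDR 0.00026). Eif4a1, a translation initiation helicase, rose by 1.09 ± 0.12, and the glutamine carrier Slc1a5 rose by 1.09 ± 0.11. Ccnd2, a D-type cyclin, went against the list and fell by 0.61 ± 0.10, from 462 to 479 CPM in NF-YAfl/fl to 288 to 341 CPM in NF-YAcKO. Ldha, Ncl, Tfrc and Tert were among the 7 genes that did not pass, with log2 fold changes of 0.13 ± 0.12, 0.41 ± 0.25, 0.12 ± 0.24 and 0.27 ± 0.25. The others were Bop1 (0.33 ± 0.14), Slc7a5 (-0.14 ± 0.42) and E2f2 (-0.62 ± 0.24, FDR 0.0763). At an unadjusted p under 0.05 by edgeR the list had 9 genes higher and 2 lower, and by DESeq2 the counts were the same.

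Of 6 genes known to be repressed by Myc, 3 fell and 0 rose by edgeR, beside 18.9% and 19.7% of all genes. The counts of the list were the same at an unadjusted p under 0.05 and by DESeq2. Cdkn1a, the CDK inhibitor p21, was at 64.6, 63.2 and 74.4 CPM in NF-YAcKO and at 320, 195 and 668 CPM in NF-YAfl/fl, and fell by 2.55 ± 0.43 on the log2 scale (FDR 0.0047). As for Mycl, the highest value was that of NF-YAfl/fl replicate 3. Gadd45a, a stress-induced growth inhibitor, fell by 0.80 ± 0.23, and Gas1, a gene of growth-arrested cells, fell by 0.74 ± 0.15. Ndrg1, Ndrg2 and Cdkn2b did not pass, with log2 fold changes of 0.15 ± 0.38, -0.28 ± 0.34 and 0.53 ± 0.30 (SE). Cdkn2b was higher in every NF-YAcKO library, at 16.9, 18.7 and 16.8 CPM against 13.1, 16.4 and 6.65 CPM in NF-YAfl/fl. Cdkn1a is also known for its induction in differentiating myoblasts, and the summed muscle markers moved with it between genotypes, but their part in its fall was not tested.

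Of 4 tested genes of glucose response under Mlx and Mondo proteins, 1 rose and 2 fell, beside 19.7% and 18.9% of all genes. Txnip, an inhibitor of thioredoxin and of glucose uptake, was at 23.5, 16.02 and 19.4 CPM in NF-YAcKO and at 46.6, 32.1 and 31.4 CPM in NF-YAfl/fl, and fell by 0.90 ± 0.21 on the log2 scale (FDR 0.0145). Its relative Arrdc4, which lies below the level set for naming genes and is named here because the list is short, fell by 1.505 ± 0.39 (FDR 0.0231). Klf10, a zinc finger repressor also induced by growth factors, rose by 1.35 ± 0.16 (FDR 0.0015). Mlxip, the Mondo partner of Mlx, did not pass (log2 fold change -0.37 ± 0.16; FDR 0.114).

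**Figure D5:**
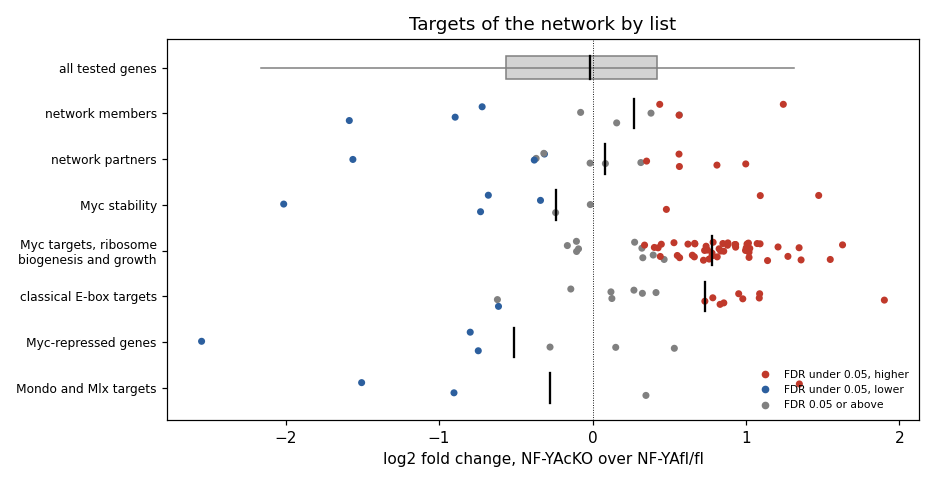
Log2 fold change of each tested gene in the lists of members, partners, stability genes and targets, with the list median as a black line. The top row gives all 17348 tested genes, with the middle 50% as a box and the 5th to 95th percentile as a line. The points of the signature of Myc activity lie mostly to the right of 0, with a median of 0.78.

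The genes whose level across the 6 libraries was most like that of Myc were Rnf114, Pmm2, Cpox, Chmp5 and Sap18b, with Pearson r of log2 CPM from 0.991 to 0.997 among 9456 genes of at least 10 CPM. For Mxd4 they were Tmtc1, Fnbp1, Chpt1, Gm16907 and Abcc5, with r from 0.993 to 0.998 among 9457 genes. The 6 points of each r are 2 genotypes of 3 libraries, so that the difference between genotypes is part of every such value. The macrophage markers also separated the genotypes, with sums of 271, 295 and 148 CPM in NF-YAcKO and 9.90, 13.2 and 6.17 CPM in NF-YAfl/fl. Their part in the values of the members was not tested.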

How the data were processed

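RNA-seq libraries of SCs from NF-YAcKO and NF-YAfl/fl mice (3 each) were analysed, and groups were taken from the sample labels. The authors used Bowtie2 for alignment to mm10 transcripts and RSEM for quantification. The deposited expected counts are neither normalized nor filtered, the deposited TPM values are scaled to transcript length and sum to the same total in each library, and the deposited percent values give the share of each transcript in the TPM of its gene. The labels name a stranded total RNA protocol and 20 mg/ml tamoxifen.

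Expected counts were rounded, and a gene was tested if its count was above 10 in 2 or more libraries (17348 of 35976 genes). The test was edgeR 4.0.16's quasi-likelihood test on TMM-normalized libraries, with genotype as sole term, in R 4.3.3. SE is the log2 fold change divided by the square root of F. Nothing in the labels says whether the libraries of a group come from separate cultures, so p-values measure the spread between these libraries. No pair of libraries agreed within sampling noise. Intervals are 95%. A count of 3 corresponded to 0.0705 to 0.115 CPM.

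The members and the gene lists were chosen with earlier results of these data known. Named genes were all members and, from each other list, up to 3 genes in each direction with the largest change among those with an FDR under 0.05, a mean level of 10 CPM or more and genotypes that did not overlap. Genes named beyond this rule (among them Myog, Tmem8c, Sin3a, Sin3b, Mlxip, Arrdc4, Ldha, Ncl, Tfrc, Tert, Bop1, Slc7a5, E2f2, Rrp12, Ipo4, Pprc1, Dusp2, Ndrg1, Ndrg2 and Cdkn2b) were chosen after their values were seen. The search for motifs in promoters was also added after the data were seen. The lists of markers of fibro-adipogenic, endothelial, Schwann and mural cells gave 2 of 5, 2 of 4, 4 of 4 and 0 of 3 genes that passed higher in NF-YAcKO and 0, 0, 0 and 1 that passed lower. Of 7 SC markers, 2 rose and 3 fell. Over all genes, 19.7% passed higher and 18.9% passed lower. Other fits used DESeq2 1.42.0, edgeR with DESeq2 size factors or plain library totals, filterByExpr, no filter, unrounded counts, limma 3.58.1 on log2(TPM + 1) and log2(TPM + 0.1), glmTreat with a minimum log2 fold change of 1, a replicate block, and each set of 5 libraries. 1 further gene of Myc stability is not reported here. Plots were drawn with matplotlib 3.10.9.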

Additional observations from a re-analysis of the deposited data

How the results depend on the processing

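Of the 10 members, 9 kept the direction of their change in all 15 alternative fits, and Mnt turned to a log2 fold change of 0.0714 without NF-YAfl/fl replicate 3 (lowest, without NF-YAfl/fl replicate 1, -0.189). The number of members that passed the test was 2 with limma on either TPM scale and ranged from 1 to 6 when a single library was left out. The number of members called was 1 with DESeq2, with its size factors in edgeR, with filterByExpr, without a filter and with limma on either TPM scale, each time Mycl, and ranged from 0 to 2 when a library was left out (Mycl and Mxd1 without NF-YAfl/fl replicate 2). Over all genes, 806 were called higher and 1331 lower. These counts were 231 and 704 with limma on log2(TPM + 1), 361 called higher on log2(TPM + 0.1), and 97 and 510 in the test against a log2 fold change of 1, and they ranged from 177 to 890 and from 523 to 1683 when a library was left out. The genes that passed the test were 3418 higher and 3285 lower. Those higher were 1547 and 1623 with limma on the 2 TPM scales, and the counts ranged from 1739 to 4456 and from 1981 to 4088 when a library was left out. The causes were not tested. Of the 57 genes of the Myc signature, 36 to 52 passed higher across the alternatives, and of the 17 classical targets 9 to 12. Of the 13 partners, 3 to 7 passed higher. The 3 partners that passed lower became 1 without a filter, with limma on either TPM scale and with the replicate block. The same count of 1 was found when any NF-YAcKO library was left out. The median of the Mondo and Mlx list was 0.0923 without a filter, which adds the gene Pklr. Of that list, 2 genes passed lower, but 0 did without NF-YAcKO replicate 2 or 3 and 1 did without NF-YAfl/fl replicate 1. The count that passed higher stayed at 1 in these fits. The difference in the log2 ratio of Myc family to repressors ranged from -0.15 to 0.26 when a library was left out.

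Libraries with the same replicate number did not deviate together (correlations of 0.259, -0.136 and 0.0786), so the numbers were not taken as pairs. With the replicate number as a block, 5 members passed the test, with Max at an FDR of 0.0567. The control libraries varied more than the NF-YAcKO libraries (biological coefficient of variation 0.310 against 0.105), and the counts of Mycn, 8 to 57 per library, limit its precision.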
